A study of Mus musculus with 9 samples.

Results

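The families described here hold enzymes that write or remove methyl groups on histones and DNA, or remove acetyl groups from proteins. They were taken as all genes whose symbol begins with Kdm, Kmt, Hdac, Sirt, Tet, Dnmt or Ezh followed by a number and at most a short letter suffix. This gave 54 of the 32285 genes in the count matrices. By family name they were 18 Kdm (histone demethylases), 8 Kmt (histone methyltransferases), 11 Hdac and 7 Sirt (deacylases), 3 Tet (DNA demethylases), 5 Dnmt (DNA methyltransferases) and 2 Ezh (polycomb methyltransferases). The rule uses symbols alone, although it was set with earlier results of these data known, and no member was among the marker genes used to assign nuclei to cell classes.

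RNA was measured by single-nucleus sequencing of epididymal adipose tissue (epiAT) from male C57BL/6J mice, with 5 mice pooled per library and 1 library per diet group. Mice of 18, 26 and 39 weeks on chow formed the lean groups C, CC and CCC. High fat diet (HFD) for 12 weeks gave H (18 weeks old) and for 25 weeks gave HH (31 weeks old). A further 8 weeks on chow after these HFD periods gave the weight loss groups HC (26 weeks old) and HHC (39 weeks old). CCH mice received 26 weeks of chow followed by 4 weeks of HFD, and HCH mice received 12 weeks of HFD, 8 weeks of chow and 4 weeks of HFD again, and both were 30 weeks old. By the methods, C was fed a low fat chow, and CC and CCC were moved to a standard chow when the weight loss groups were. The diet states tested below therefore pool libraries of different age and diet duration, and p-values measure the spread between such libraries, each a pool of animals. The labels place C, H, HH, CCH and HCH in a sequencing set called S075 and CC, CCC, HC and HHC in a set called S019, so both obese libraries are in S075 and both weight loss libraries are in S019. Of the states tested, only lean has libraries in both sets. Where sequencing set is a term in a fit, obese against lean therefore sets H and HH against C alone. Weight loss against lean then sets HC and HHC against CC and CCC.

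The libraries held 22599619 to 66615262 unique molecular identifiers (UMIs, which count captured RNA molecules), and 4144 to 13330 nuclei per library passed the filters. Pairs of libraries shared 0.141% to 0.493% of the barcodes of the smaller library. Nuclei were assigned to a class where their UMIs of 10 marker genes exceeded the level given by free RNA in that library, which placed 56.3% to 85.4% of them. The adipocyte sums rested on 197 to 2561 nuclei per library, with the fewest in H, the progenitor sums on 675 to 3147 and the macrophage sums on 345 to 3536. All 10 macrophage markers had UMIs in the adipocyte sums of every library, at a summed level of 508 to 981 counts per 1e+06 UMIs of the class (CPM), against 6369 to 8859 CPM in macrophages. Summed adipocyte markers in the progenitor sums, a measure of free adipocyte RNA, were 3383 CPM in CC and 190 to 1135 CPM in the other libraries. H and HH differed from the lean libraries with gene length over all genes, as HCH and, in macrophages, HHC did to a lesser degree. Values with a length offset are given below. Levels below are CPM, intervals on them cover counting error only, and log2 fold changes come from edgeR with p-values adjusted over all genes tested.

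These families set much of the chromatin state of a cell. EZH1 and EZH2 place the repressive mark H3K27me3 as the catalytic subunits of polycomb repressive complex 2, and KDM6A and KDM6B remove it. KMT2A to KMT2D methylate H3K4, KMT2C and KMT2D mainly at enhancers, whereas KDM1A and the KDM5 enzymes remove H3K4 methylation. HDACs and sirtuins take acetyl and other acyl groups off proteins, the sirtuins with NAD+ as cosubstrate, and SIRT3, SIRT4 and SIRT5 work in mitochondria. DNMT1 maintains DNA methylation, DNMT3A and DNMT3B add it, and the TET enzymes oxidise it. HDAC9 is a class IIa deacetylase with little catalytic activity of its own, known in fat as a brake on adipocyte differentiation.

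Most members were detected in every cell class, and of the 54 only 2 in epithelial nuclei to 6 in macrophages had a median below 5 CPM over the libraries. In a comparison of each of 6 classes with the mean of the other 5 over the 9 libraries, 52 of the 54 members were tested and 49 differed in at least 1 class. In a single class 6970 (mesothelial) to 9397 (macrophages) of all 13580 genes were called. The share of all genes called in at least 1 class was not counted. Kdm1b, Kdm8 and Sirt6 did not pass in any class. Dnmt3c and Dnmt3l had too few UMIs to be tested, with medians of 0 CPM for Dnmt3c in adipocytes and a highest level of 2.40 CPM for Dnmt3l there, in H. Members called higher numbered 20 in adipocytes beside 30.3% of all genes, 10 in progenitors beside 23.9%, and 19 in macrophages beside 35%. They numbered 7 in endothelial nuclei beside 24.1%, 5 in mesothelial nuclei beside 21.2%, and 17 in epithelial nuclei beside 28.6%.

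**Figure D1:**
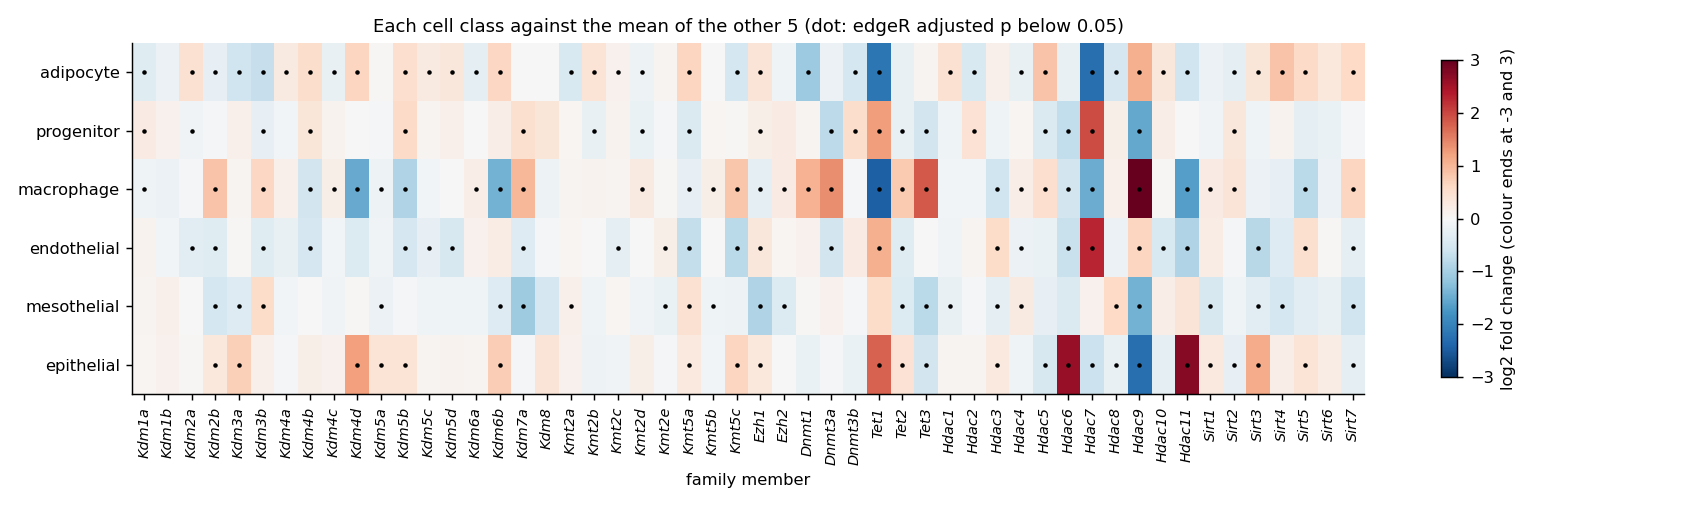
Log2 fold change of each of the 52 tested members (columns) in each of 6 cell classes (rows) against the mean of the other 5 classes, with a dot where the edgeR adjusted p was below 0.05. Hdac9 stood out in macrophages at 3.51, Hdac7 in endothelial nuclei and progenitors, and Hdac6 and Hdac11 in epithelial nuclei.

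In macrophages the leading members were Hdac9, Tet3, Dnmt3a and Dnmt1. Hdac9 was higher there than in the other classes by a log2 fold change of 3.51 (SE 0.20, adjusted p = 5.3e-20). Tet3, which oxidises 5-methylcytosine, was higher by 1.84 (SE 0.090, adjusted p = 6.3e-23), Dnmt3a by 1.40 (SE 0.078, adjusted p = 1.0e-20) and Dnmt1 by 1.05 (SE 0.13, adjusted p = 1.7e-09). The demethylase gene Kdm7a followed at 1.00 (SE 0.072, adjusted p = 6.1e-17). Levels of Tet3 in macrophages ran from 412 to 661 (median 532) CPM over the 9 libraries, above the highest library of the adipocytes at 292 CPM. The highest library of the epithelial nuclei, at 423 CPM, lay within the macrophage range.

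Other classes had leading members of their own. Hdac7, a class IIa deacetylase known for its role in blood vessels, was higher in endothelial nuclei by 2.29 (SE 0.11, adjusted p = 1.2e-22) and in progenitors by 1.96 (SE 0.11, adjusted p = 2.0e-20). It ran from 254 to 411 (median 309) CPM in endothelial nuclei and from 8.39 to 57.8 (median 16.0) CPM in adipocytes, ranges that did not overlap. Tet1 had few UMIs in every class but was higher in progenitors, endothelial and epithelial nuclei, by 1.26 (SE 0.17, adjusted p = 3.9e-08), 1.07 (SE 0.22, adjusted p = 5.9e-05) and 1.76 (SE 0.22, adjusted p = 2.7e-09). Endothelial nuclei were further led by Hdac9 at 0.63 (SE 0.24, adjusted p = 0.021), Hdac3 at 0.55 (SE 0.087, adjusted p = 7.2e-07) and Sirt5 at 0.47 (SE 0.16, adjusted p = 0.01). Macrophage RNA at its marker share would give 32.0% to 68.3% of the endothelial Hdac9 level. In progenitors Kdm5b, Dnmt3b and Kdm7a came next, at log2 fold changes of 0.57, 0.53 and 0.47, each called higher.

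Epithelial nuclei, 61 to 484 per library, carried the cytoplasmic deacetylase gene Hdac6 and the class IV gene Hdac11 at higher levels, by 2.61 (SE 0.14, adjusted p = 6.0e-21) and 2.74 (SE 0.20, adjusted p = 5.0e-16). Kdm4d and Sirt3 were higher there too, by 1.24 and 1.12. Adipocytes were led by Hdac9 at 1.07 (SE 0.24, adjusted p = 1.2e-04), which in C and CCH was below the level that macrophage RNA alone would give there (values below), Sirt4 at 0.85 (SE 0.15, adjusted p = 4.7e-06) and Hdac5 at 0.85 (SE 0.10, adjusted p = 7.1e-10), with Kdm4d and the H4K20 methyltransferase gene Kmt5a at 0.64 and 0.64. Mesothelial nuclei had 18 of 52 members called lower, beside 4085 of all 13580 genes. They were led by Hdac9 at -1.42 (SE 0.29, adjusted p = 5.2e-05), Kdm7a at -1.06 (SE 0.088, adjusted p = 2.6e-14) and Ezh1 at -0.91 (SE 0.077, adjusted p = 4.0e-14). The 5 called higher there were Hdac8 at 0.59 (SE 0.084, adjusted p = 9.4e-08) and Kdm3b at 0.56 (SE 0.067, adjusted p = 1.6e-09), followed by Kmt5a, Hdac4 and Kmt2a at 0.46, 0.27 and 0.16.

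The promoters of Hdac9 and Hdac7 are shown because these paralogs led different classes and differ in the most CpG of a window, the target of the DNMT and TET enzymes. RefSeq promoter windows of 300 bases (build GRCm38.p6, 250 before and 50 after a transcript start) were found for 43 members and not for Dnmt3c, Hdac1, Hdac10, Hdac3, Kdm2a, Kdm3b, Kdm4b, Kdm5a, Kdm6b, Kmt2b and Kmt2e. The median of the most CpG in a window was 23 over these members and 8 over 27025 genes. Hdac9 was the only member with 5 or fewer, at 3, as were 41.8% of all genes, and the other 42 members had more. Hdac9 (ENSMUSG00000004698, chr12:34047580-34917095, minus strand, 870 kb long) has starts 388 kb apart, and its windows lie at chr12:34917046-34917345 with 0 CpG and chr12:34528840-34529139 with 3 CpG. Hdac7 (ENSMUSG00000022475, chr15:97792664-97844502, minus strand) has 4 windows with 5, 6, 31 and 35 CpG, of which the one with most lies at chr15:97831718-97832017. Each is printed 5′ to 3′ on the gene's strand, with capitals marking CG dinucleotides, and the sequences were searched for no other motif.
Hdac9, start farther upstream: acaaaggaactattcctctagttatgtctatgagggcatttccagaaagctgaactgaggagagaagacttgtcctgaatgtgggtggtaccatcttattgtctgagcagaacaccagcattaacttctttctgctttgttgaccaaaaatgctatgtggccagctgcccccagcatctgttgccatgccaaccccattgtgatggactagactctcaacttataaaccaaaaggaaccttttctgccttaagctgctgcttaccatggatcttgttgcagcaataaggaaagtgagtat
Hdac9, start farther downstream: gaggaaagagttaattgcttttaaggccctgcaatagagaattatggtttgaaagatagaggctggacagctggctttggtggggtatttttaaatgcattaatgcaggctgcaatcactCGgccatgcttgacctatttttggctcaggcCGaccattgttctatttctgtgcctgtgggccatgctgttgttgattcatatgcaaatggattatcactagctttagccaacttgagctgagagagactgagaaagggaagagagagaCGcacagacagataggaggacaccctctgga
Hdac7, window with most CpG: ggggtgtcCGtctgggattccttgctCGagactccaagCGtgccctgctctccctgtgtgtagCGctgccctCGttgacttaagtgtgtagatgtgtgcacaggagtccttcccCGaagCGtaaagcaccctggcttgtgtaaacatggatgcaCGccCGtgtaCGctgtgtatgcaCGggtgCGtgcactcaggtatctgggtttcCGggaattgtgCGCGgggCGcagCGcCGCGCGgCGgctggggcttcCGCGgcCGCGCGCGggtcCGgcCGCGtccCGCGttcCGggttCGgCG

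Macrophages of obese mice had less Hdac9 RNA than those of lean mice, and the level stayed below lean after weight loss. Hdac9 in macrophages was 1608, 1095 and 1524 CPM in C, CC and CCC, 366 and 388 in H and HH, 537 and 499.97 in HC and HHC, 1784 in CCH and 984 in HCH. The lean libraries and CCH were highest, HCH lay between, and the obese and weight loss libraries did not overlap with the lean ones. The log2 fold change was -2.06 (SE 0.22, adjusted p = 0.0014) for obese against lean and -1.45 (SE 0.21, adjusted p = 0.0062) for weight loss against lean. Hdac9 was the only member called in the weight loss comparison of macrophages, 1 of 49 tested, where 6.44% of all genes were called. Without HHC it was not called there. With a gene length offset neither macrophage value was called, at -0.44 (adjusted p = 0.34) for obese and -1.02 (adjusted p = 0.094) for weight loss.

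The kinds of macrophage changed over the same libraries. Nuclei were gated as lipid-associated macrophages (LAMs, which gather around dying adipocytes and carry Trem2 and related genes) or perivascular-like macrophages (PVMs, resident cells of healthy fat). LAMs made up 3.36%, 4.55% and 9.57% of macrophage nuclei in C, CC and CCC, 88.2% and 85.6% in H and HH, 80.5% and 95.9% in HC and HHC, 6.12% in CCH and 67.2% in HCH. The libraries low in Hdac9 were those with many LAMs, and the part of this share in the result was not tested.

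Within a library, Hdac9 was lower in LAMs than in PVMs. It was 501, 679 and 638 CPM in C, CC and CCC, 269.9 and 281 in H and HH, 407 and 446 in HC and HHC, 1093 in CCH and 657 in HCH in LAMs. In PVMs it was 1657, 1062 and 1582 CPM in C, CC and CCC, 1273 and 1164 in H and HH, 1359.6 and 1716 in HC and HHC, 1819 in CCH and 1718 in HCH. PVMs were above LAMs in 9 of 9 libraries, by 1.56-fold in CC to 4.72-fold in H, although the lean libraries and HHC held fewer than 50 nuclei of 1 kind and stayed out of the test. Over the 5 libraries tested (H, HH, HC, CCH and HCH) the log2 fold change of LAM against PVM was -1.71 (SE 0.24, adjusted p = 0.0051). Within LAMs the H and HH values were still the lowest of the 9, and within PVMs they were the lowest after CC.

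**Figure D2:**
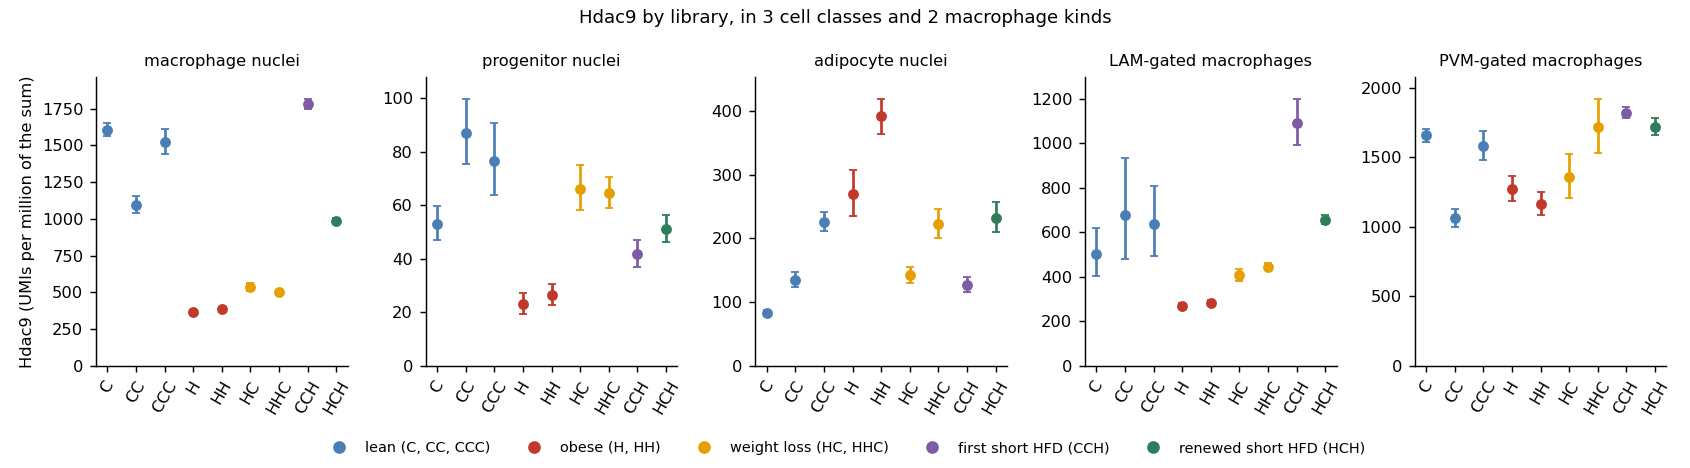
Hdac9 in CPM (y axes, from 0, scaled per panel) for each library (x axes), in macrophage, progenitor and adipocyte nuclei and in LAM and PVM gated macrophages, with bars for 95% counting intervals. H and HH were lowest in macrophages, progenitors and LAMs and highest in adipocytes.

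Of the 49 members tested between LAMs and PVMs, 5 were higher in LAMs, where 12.3% of all genes were, and 3 were lower, where 11.9% were. Higher in LAMs were Hdac7 at 1.36 (SE 0.26, adjusted p = 2.2e-04), Kmt5a at 0.85 (SE 0.19, adjusted p = 8.1e-04), the DNA methyltransferase genes Dnmt1 at 0.56 (SE 0.21, adjusted p = 0.046) and Dnmt3a at 0.55 (SE 0.10, adjusted p = 4.3e-05), and Tet2 at 0.46 (SE 0.094, adjusted p = 2.5e-04). Lower beside Hdac9 were Kmt2e at -0.34 (SE 0.088, adjusted p = 0.0035) and Kdm7a at -0.24 (SE 0.090, adjusted p = 0.045). Dnmt1 lost its call in 6 of 8 alternatives and Kdm7a in 7 of 8. Dnmt1, Dnmt3a and Kdm7a were also among the leading members of macrophages against the other classes.

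Obese against lean macrophages had 10 of 49 tested members called, 2 higher and 8 lower, where 30.5% of all genes were called, 16.6% higher and 14% lower. Dnmt3c, Dnmt3l, Hdac11, Kdm4d and Tet1 fell below the count filter. The median log2 fold change over the members was -0.22, and that over all genes was 0.05. These were not matched by gene length, and 25 members were 30 to 100 kb long, where the median of all genes was -0.18. Leaving out H or HH left Hdac9 as the only member called, and leaving out CCC left 4. Nuclei with a proliferation marker made up 3.22% to 17.2% of macrophages, and 7 of the 10 calls held without them. Kdm6b, the inducible H3K27 demethylase of activated macrophages, was 27.9, 26.2 and 24.3 CPM in C, CC and CCC, 10.7 and 10.4 in H and HH, 15.6 and 13.6 in HC and HHC, 15.0 in CCH and 13.9 in HCH. All 3 lean libraries were above the other 6, including CCH. The summed adipocyte markers in the macrophage sums were also higher in lean libraries, at 1214, 3549 and 1301 CPM in C, CC and CCC against 314 and 469 CPM in H and HH. Adipocyte Kdm6b at their share would be 3.32, 17.0 and 8.47 CPM in C, CC and CCC and 1.78 and 1.44 CPM in H and HH, the most being 65.0% of the measured value in CC. Kdm6b was still called without CC. Its log2 fold change was -1.47 (SE 0.26, adjusted p = 0.0061) in obese and -0.88 (SE 0.26, adjusted p = 0.086) after weight loss, the latter short of the threshold. Between LAMs and PVMs it did not pass, at 0.57 (SE 0.29, adjusted p = 0.18).

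Sirt6, a nuclear deacylase that restrains glycolytic and inflammatory genes, was higher in obese macrophages by 2.49 (SE 0.51, adjusted p = 0.0095). It was low throughout, at 1.95, 1.497 and 4.86 CPM in C, CC and CCC, 15.7 and 14.7 in H and HH, 2.43 and 5.68 in HC and HHC, 2.197 in CCH and 8.33 in HCH, with the lean libraries resting on few UMIs. The nucleolar Sirt7 was 49.6, 29.9 and 46.2 CPM in C, CC and CCC, 90.8 and 80.2 in H and HH, 39.2 and 63.1 in HC and HHC, 40.5 in CCH and 58.7 in HCH and rose by 0.86 (SE 0.26, adjusted p = 0.035). Both were highest in H and HH, and HCH was above CCH for both. Sirt7 lost its call in 8 of 17 alternatives, and turned to -0.12 (adjusted p = 0.75) with the length offset and sequencing set as a term together.

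Kdm4a and Kdm4b, which encode demethylases of H3K9 and H3K36, fell in obese macrophages. Kdm4b was 31.2, 62.1 and 53.5 CPM in C, CC and CCC, 25.3 and 23.9 in H and HH, 51.8 and 41.3 in HC and HHC, 24.9 in CCH and 21.4 in HCH and fell by 1.12 (SE 0.32, adjusted p = 0.029) on the log2 scale. Kdm4a was 36.5, 51.7 and 45.0 CPM in C, CC and CCC, 27.6 and 25.9 in H and HH, 40.6 and 37.9 in HC and HHC, 31.9 in CCH and 29.9 in HCH with a log2 fold change of -0.88 (SE 0.23, adjusted p = 0.023). For both, all 4 libraries of set S019 were above the 5 of set S075, C included, and neither was called with sequencing set as a term, at -0.52 (adjusted p = 0.24) for Kdm4b and -0.63 (adjusted p = 0.13) for Kdm4a. The H3K4 demethylase gene Kdm5b was 59.4, 65.9 and 69.3 CPM in C, CC and CCC, 43.3 and 49.3 in H and HH, 55.6 and 51.2 in HC and HHC, 59.1 in CCH and 47.0 in HCH with a log2 fold change of -0.64 (SE 0.20, adjusted p = 0.039). H and HH were the lowest libraries for Kdm5b, apart from HCH which lay between them. Adipocyte RNA at its marker share would give 48.9% of the macrophage level of Kdm4b, 36.7% of that of Kdm5b and 20.6% of that of Kdm4a in CC, and without CC none of the 3 was called.

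The other members called lower were writers. Dnmt3b was 12.0, 8.98 and 15.8 CPM in C, CC and CCC, 6.42 and 5.95 in H and HH, 6.60 and 5.94 in HC and HHC, 9.70 in CCH and 8.11 in HCH, at -1.11 (SE 0.35, adjusted p = 0.043), and the weight loss libraries were as low as the obese ones. Kmt2d was 49.9, 84.6 and 88.7 CPM in C, CC and CCC, 45.6 and 44.8 in H and HH, 92.4 and 74.1 in HC and HHC, 44.3 in CCH and 34.4 in HCH, at -0.85 (SE 0.28, adjusted p = 0.049). Kmt5b, an H4K20 methyltransferase gene, was 228, 196 and 215 CPM in C, CC and CCC, 162 and 160.4 in H and HH, 183 and 171 in HC and HHC, 213 in CCH and 184 in HCH, at -0.56 (SE 0.16, adjusted p = 0.032). Kmt2d again separated the sequencing sets, with all S075 libraries below all S019 libraries, whereas for Kmt5b C and CCH were high with CC and CCC. Of 17 alternatives, the call was lost in 10 for Dnmt3b, 10 for Kmt2d and 9 for Kmt5b.

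Dnmt3a in macrophages was 496, 572 and 555 CPM in C, CC and CCC, 532 and 541 in H and HH, 973 and 809.6 in HC and HHC, 415 in CCH and 417 in HCH. HC and HHC were the highest libraries, and CCH and HCH the lowest. The log2 fold change was 0.71 (SE 0.18, adjusted p = 0.052) for weight loss, just short of the threshold, and -0.17 (SE 0.18, adjusted p = 0.5) for obese. Over 17 alternatives the weight loss value ran from 0.48 to 0.92, and 4 of them called it. All 4 S019 libraries were above the 5 S075 libraries, and with sequencing set as a term the weight loss value was 0.66 (adjusted p = 0.11). Within LAMs Dnmt3a was 547, 697 and 657 CPM in C, CC and CCC, 556 and 573 in H and HH, 1039 and 828 in HC and HHC, 504 in CCH and 483 in HCH. HC and HHC were again the highest. Dnmt1, which rises with DNA replication, was 24.0, 23.2 and 26.7 CPM in C, CC and CCC, 38.4 and 25.9 in H and HH, 44.8 and 36.5 in HC and HHC, 22.7 in CCH and 29.0 in HCH and was not called, at 0.71 (SE 0.26, adjusted p = 0.15) for weight loss.

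Adipocytes of obese mice had more RNA of Sirt4, Sirt5 and Sirt6 and less of Hdac4, Hdac8, Kmt2a and Kdm7a. Of 51 tested members 7 were called, 3 higher and 4 lower, where 13.8% of all genes were called, 9.31% higher and 4.44% lower. Dnmt3c, Dnmt3l and Tet1 were not tested. The median log2 fold change over the members was -0.45, and that over all genes was -0.08. These were not matched by gene length, and 26 members were 30 to 100 kb long, where the median of all genes was -0.32. Leaving out CC, H or HH left no member called, although the fold changes stayed in the same direction, for example 1.27 to 1.59 for Sirt5 and -1.14 to -0.89 for Kmt2a whichever library was left out. Without H or HH the obese side is 1 library, and H held 197 adipocyte nuclei.

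Of the genes for the mitochondrial sirtuins, Sirt4 and Sirt5 rose in obese adipocytes. Sirt5, which removes succinyl and malonyl groups from metabolic enzymes, was 15.2, 11.2 and 16.8 CPM in C, CC and CCC, 40.7 and 47.5 in H and HH, 16.2 and 23.4 in HC and HHC, 21.1 in CCH and 29.6 in HCH, with a log2 fold change of 1.41 (SE 0.27, adjusted p = 0.018). Sirt4, which acts on amino acid and fatty acid oxidation, was 10.9, 8.87 and 12.1 CPM in C, CC and CCC, 34.7 and 35.6 in H and HH, 6.24 and 21.7 in HC and HHC, 15.8 in CCH and 16.0 in HCH, with 1.52 (SE 0.41, adjusted p = 0.045). H and HH were the highest libraries for both, and all 7 others lay below them, but Sirt4 lost its call in 7 of 17 alternatives, among them the length offset and sequencing set as a term, at 1.36 (adjusted p = 0.13). Sirt6 was 3.26, 3.50 and 4.27 CPM in C, CC and CCC, 16.8 and 20.3 in H and HH, 1.70 and 7.03 in HC and HHC, 7.04 in CCH and 8.89 in HCH and rose by 2.14 (SE 0.50, adjusted p = 0.03). Sirt3, the main mitochondrial deacetylase, ran from 20.4 to 28.3 (median 26.4) CPM and was not called, at -0.37 (SE 0.27, adjusted p = 0.36).

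Sirt7 did not pass in adipocytes, at 0.81 (SE 0.26, adjusted p = 0.065). Sirt1, the nuclear deacetylase linked to fasting, was 46.8, 30.6 and 32.4 CPM in C, CC and CCC, 15.6 and 33.1 in H and HH, 21.0 and 26.4 in HC and HHC, 34.6 in CCH and 32.6 in HCH and did not pass, at -0.76 (SE 0.39, adjusted p = 0.21). Sirt2, a cytoplasmic deacetylase, did not pass either, at -0.82 (SE 0.26, adjusted p = 0.068). The 7 sirtuins thus split in these nuclei into 3 called higher and 4 not called.

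The members that fell in obese adipocytes act on histone acetylation and methylation. Hdac4, a class IIa deacetylase, was 104, 135 and 133 CPM in C, CC and CCC, 43.1 and 62.3 in H and HH, 136 and 101 in HC and HHC, 83.7 in CCH and 84.7 in HCH with a log2 fold change of -1.41 (SE 0.30, adjusted p = 0.024). Kmt2a, an H3K4 methyltransferase gene, was 108, 171 and 173 CPM in C, CC and CCC, 79.1 and 89.5 in H and HH, 189 and 189.9 in HC and HHC, 139 in CCH and 107 in HCH with -1.02 (SE 0.26, adjusted p = 0.037). For both, H and HH were the lowest libraries, but C was close to HCH for Kmt2a. Kdm7a, a demethylase gene for H3K9 and H3K27, was 245, 199.9 and 187 CPM in C, CC and CCC, 128 and 116 in H and HH, 168 and 190.5 in HC and HHC, 218 in CCH and 174 in HCH with -1.02 (SE 0.26, adjusted p = 0.04). Hdac8 was 141, 192 and 203 CPM in C, CC and CCC, 121 and 108 in H and HH, 197 and 188 in HC and HHC, 159 in CCH and 166 in HCH with -0.84 (SE 0.23, adjusted p = 0.048). Both were again lowest in H and HH, whereas C was the highest for Kdm7a and the lowest after H and HH for Hdac8. For Kmt2a and Hdac8 all S019 libraries were above all S075 libraries, and neither was called with sequencing set as a term, at -0.68 (adjusted p = 0.1) and -0.64 (adjusted p = 0.12).

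Hdac9 had a positive log2 fold change in obese adipocytes, where that in macrophages was negative. It was 82.3, 135 and 226 CPM in C, CC and CCC, 269.6 and 391.6 in H and HH, 142 and 223 in HC and HHC, 127 in CCH and 233 in HCH. Its highest libraries were H and HH, but CCC, HHC and HCH were not far below H. The log2 fold change was 1.01 (SE 0.35, adjusted p = 0.083), short of the threshold. It passed with a gene length offset at 1.82 (adjusted p = 0.036) and without the limit of 3000 genes per nucleus at 1.53 (adjusted p = 0.025). With sequencing set as a term it was 1.68, where the lean reference is C alone, the lowest library for Hdac9. Over the 17 alternatives its adjusted p ran from 0.0226 to 0.433.

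The level that macrophage RNA alone would give in the adipocyte sums was set beside this. The macrophage marker list stood in adipocytes at 6.46% to 12.2% of its macrophage level. Macrophage Hdac9 at the same share would be 104, 88.4 and 125 CPM in C, CC and CCC, 28.3 and 28.4 CPM in H and HH, 42.8 and 61.0 CPM in HC and HHC, 135 CPM in CCH and 109 CPM in HCH. The measured adipocyte value was below this level in C and CCH and above it in the other 7 libraries, by the most in H and HH.

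After weight loss, none of the 51 members was called in adipocytes, as was the case for 0% of all genes. At an unadjusted p below 0.05, edgeR had 2 members, and DESeq2 called 0. Sirt5, Hdac4 and Kmt2a in HC and HHC lay near the lean levels given above, with log2 fold changes of 0.41 (SE 0.28, adjusted p = 0.68), -0.051 (SE 0.28, adjusted p = 0.97) and 0.33 (SE 0.24, adjusted p = 0.7). HHC was above the lean range for Sirt4 and Sirt5 and HC was not.

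**Figure D3:**
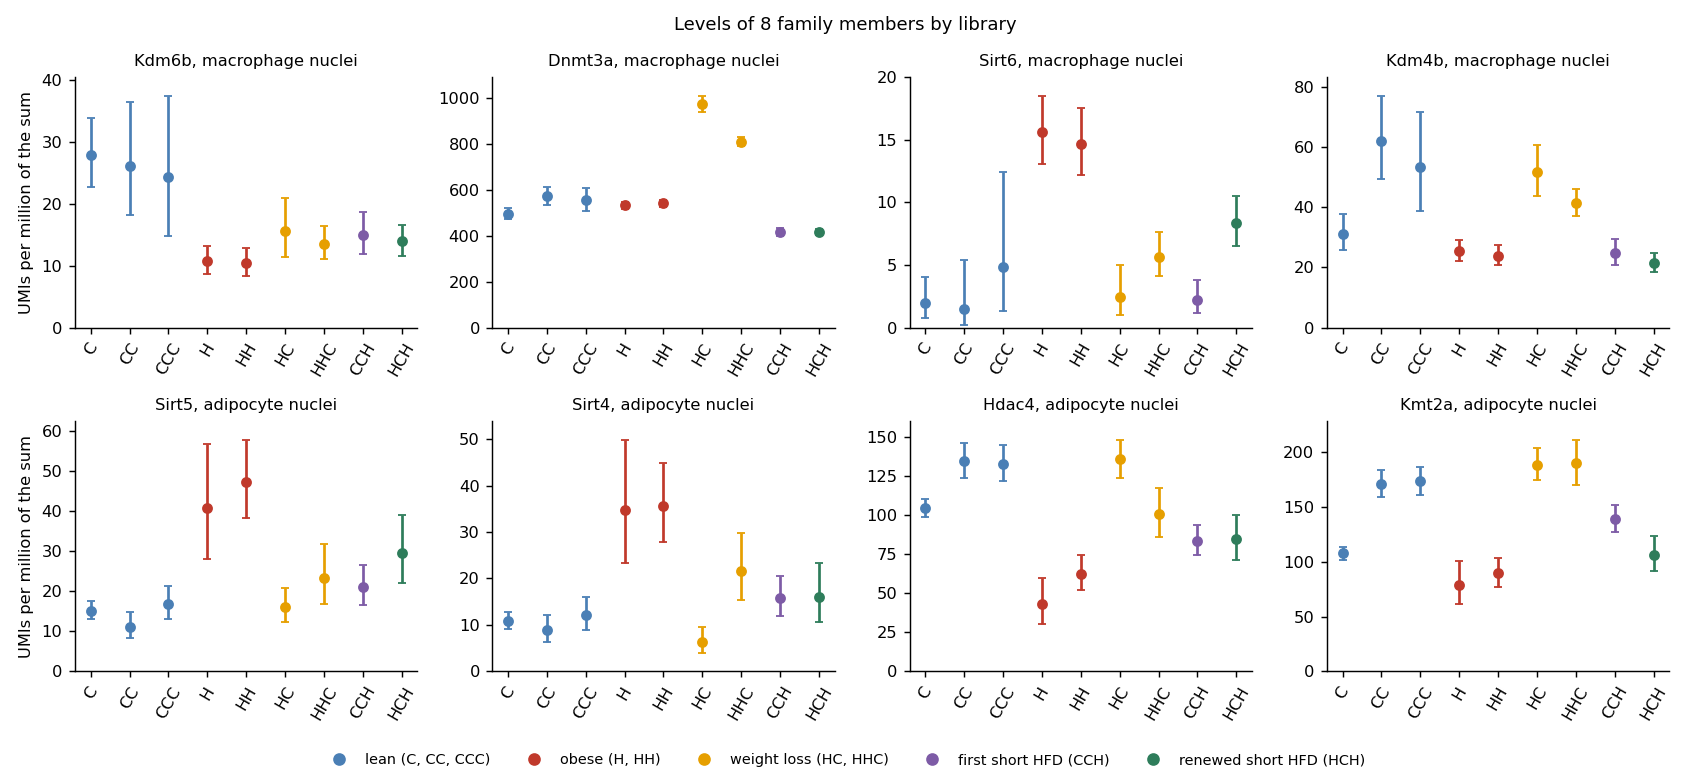
Levels of 4 members in macrophages (top row) and 4 in adipocytes (bottom row), in CPM (y axes, from 0, scaled per panel) for each library (x axes), with bars for 95% counting intervals. Sirt6 in macrophages and Sirt4 and Sirt5 in adipocytes were highest in H and HH, whereas Dnmt3a in macrophages was highest in HC and HHC.

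Hdac9 was lower in the progenitor sums of obese mice, at levels that cannot be told apart from those of macrophage RNA. It was 53.0, 86.9 and 76.5 CPM in C, CC and CCC, 22.9 and 26.4 in H and HH, 66.2 and 64.5 in HC and HHC, 41.7 in CCH and 51.0 in HCH, and H and HH were the lowest libraries, followed by CCH. The log2 fold change was -1.78 (SE 0.26, adjusted p = 0.0063), and for weight loss it was -0.20 (SE 0.24, adjusted p = 0.77). The summed macrophage markers in the progenitor sums were 349.7, 489 and 435 CPM in C, CC and CCC and 968 and 1115 CPM in H and HH, and 355 to 1163 CPM in the other 4 libraries. Macrophage Hdac9 at the share of these markers would be 66.4, 78.3 and 74.8 CPM in C, CC and CCC, 46.2 and 53.9 CPM in H and HH, 53.6 and 72.3 CPM in HC and HHC, 78.9 CPM in CCH and 118 CPM in HCH. The measured value was below this level in C, H, HH, HHC, CCH and HCH and above it in CC, CCC and HC. Of 52 tested members 6 were called in the obese comparison, 2 higher and 4 lower, where 18.2% of all genes were called, 10.8% higher and 7.4% lower. Leaving out H or HH left no member called, and leaving out CC left Hdac9 alone. The median log2 fold change was -0.32 over the members and -0.04 over all genes. These were not matched by gene length, and 26 members were 30 to 100 kb long, where the median of all genes was -0.22.

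Higher in obese progenitors were Sirt6 and Kmt5a. Sirt6 was 1.42, 3.07 and 5.93 CPM in C, CC and CCC, 15.6 and 16.6 in H and HH, 2.14 and 4.05 in HC and HHC, 3.33 in CCH and 9.12 in HCH, with 2.15 (SE 0.50, adjusted p = 0.021). Kmt5a, which places H4K20me1, was 20.8, 19.8 and 17.2 CPM in C, CC and CCC, 41.3 and 36.9 in H and HH, 22.4 and 29.0 in HC and HHC, 26.1 in CCH and 25.2 in HCH, with 0.76 (SE 0.22, adjusted p = 0.041). H and HH were above the other 7 libraries for both. Sirt6 lost its call in 3 and Kmt5a in 11 of 17 alternatives.

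Lower beside Hdac9 were Kdm4b, Kmt2d and Kmt2a. Kdm4b was 50.2, 101 and 113 CPM in C, CC and CCC, 39.0 and 44.0 in H and HH, 111 and 72.9 in HC and HHC, 38.8 in CCH and 37.5 in HCH, with -1.30 (SE 0.36, adjusted p = 0.037). Kmt2d was 42.3, 65.4 and 72.4 CPM in C, CC and CCC, 41.1 and 31.3 in H and HH, 64.9 and 58.3 in HC and HHC, 38.5 in CCH and 27.7 in HCH, with -0.95 (SE 0.27, adjusted p = 0.039). Kmt2a was 186, 196 and 247 CPM in C, CC and CCC, 154 and 158 in H and HH, 245 and 242 in HC and HHC, 184 in CCH and 157 in HCH, with -0.66 (SE 0.19, adjusted p = 0.04). For all 3, as for Hdac9, the S075 libraries, C included, were below the S019 libraries. With sequencing set as a term the log2 fold changes were -0.55 (adjusted p = 0.27) for Kdm4b, -0.51 (adjusted p = 0.21) for Kmt2d and -0.53 (adjusted p = 0.1) for Kmt2a, whereas Hdac9 kept its call at -1.38 (adjusted p = 0.039). After weight loss none of the 52 members was called in progenitors, where 1.31% of all genes were. At an unadjusted p below 0.05 edgeR had 1 member, and DESeq2 called 0.

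The change of Hdac9 with obesity differed between classes when the difference itself was tested. In a joint fit of the 3 classes over the 7 lean, obese and weight loss libraries, a test added after the values were seen, the log2 fold change of Hdac9 in obese macrophages minus that in adipocytes was -3.03 (SE 0.38, adjusted p = 4.5e-04). That of progenitors minus adipocytes was -2.75 (SE 0.40, adjusted p = 0.0026), and that of macrophages minus progenitors was -0.28 (SE 0.39, adjusted p = 0.76). Both differences with progenitors rest on Hdac9 levels near or below what macrophage RNA alone would give there. For weight loss, macrophages minus adipocytes gave -1.87 (SE 0.38, adjusted p = 0.027). With a gene length offset the obese difference between macrophages and adipocytes was still called.

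For obese against lean, 7 members differed between macrophages and adipocytes, where 12.2% of all genes did. Hdac9 and Kdm6b had the lower fold change in macrophages, and Tet2, Sirt2, Hdac4, Kdm3b and Kmt2a had the higher one. Kdm6b differed by -1.18 (SE 0.33, adjusted p = 0.034), and its adipocyte levels were 32.6, 67.0 and 72.9 CPM in C, CC and CCC, 69.5 and 39.6 in H and HH, 58.4 and 61.5 in HC and HHC, 51.3 in CCH and 37.3 in HCH, where the lean and obese libraries overlapped. Between progenitors and adipocytes 2 members differed, Hdac9 and Sirt2, where 4.97% of all genes did. Between macrophages and progenitors none was called, where 8.27% of all genes were, although edgeR had 8 at an unadjusted p below 0.05 and DESeq2 called 3.

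For weight loss, Hdac9 alone differed between macrophages and adipocytes, where 2.12% of all genes did. Kdm2b, a demethylase and CpG island binding gene, alone differed between macrophages and progenitors, by -0.77 (SE 0.18, adjusted p = 0.036), where 2.25% of all genes did. This difference lost its call in 9 of 11 alternatives, among them whichever library was left out. It was 92.6, 114 and 123 CPM in C, CC and CCC, 80.2 and 87.8 in H and HH, 81.6 and 76.8 in HC and HHC, 108 in CCH and 96.7 in HCH in macrophages, with the lean libraries, CCH and HCH above the obese and weight loss libraries. In progenitors it was 50.4, 58.8 and 54.6 CPM in C, CC and CCC, 66.2 and 62.1 in H and HH, 69.1 and 68.2 in HC and HHC, 48.6 in CCH and 58.8 in HCH, where HC, HHC and H were highest. Between progenitors and adipocytes edgeR called none, with 2 at an unadjusted p below 0.05 and 0 by DESeq2, where 0.00693% of all genes were called.

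The obese libraries also differed from the lean ones by gene length over all genes, and the members span a wide range of it. Genes of up to 10 kb had a median log2 fold change of 0.78 in adipocytes, 0.65 in progenitors and 0.89 in macrophages, and genes over 200 kb had medians of -0.77, -0.58 and -1.09. For weight loss against lean the corresponding medians lay between -0.14 and 0.13 for short genes and between -0.21 and 0.013 for long ones. Single libraries differed within that state. Against the mean of the lean libraries, short genes in adipocytes had medians of -0.45 in HC, 0.26 in HHC and 0.28 in lean CCC. In macrophages short genes had -0.18 in HC and 0.43 in HHC, and long genes had 0.049 and -0.43. Sirt6, Sirt4 and Sirt7, each called higher in at least 1 class, are 6.01, 6.72 and 6.87 kb long, and Sirt5 is 29.7 kb. Hdac9, Hdac4 and Hdac8 are 870, 267 and 221 kb long. With a length offset Sirt4 and Hdac8 were not called in adipocytes, at 0.90 (adjusted p = 0.13) and -0.26 (adjusted p = 0.43), nor was Sirt7 in macrophages, at 0.16 (adjusted p = 0.64).

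Kdm6b is 15.2 kb long and fell, whereas the median of all macrophage genes of 10 to 30 kb was 0.16. With the length offset its macrophage log2 fold change was -1.74 (adjusted p = 0.0037), with sequencing set as a term -1.57 (adjusted p = 0.027) and with both -1.86 (adjusted p = 0.017). It was the only macrophage member called with both. Over the 17 alternatives its adjusted p ran from 6.1e-05 to 0.0604, and 15 of them called it. It was not called without H or without HH.

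For Hdac9 the length offset acted differently by class. In obese macrophages it left -0.44 (adjusted p = 0.34), no longer called. Of 259 genes over 400 kb tested in macrophages, whose median was -1.90, 119 fell further than Hdac9. In obese progenitors the value was -1.05 (adjusted p = 0.028), still called, but with the offset and sequencing set as a term together it was -0.60 (adjusted p = 0.11), not called. Of 294 progenitor genes of that length, with a median of -0.76, 59 fell further than Hdac9. In adipocytes 250 of 274 genes over 400 kb, with a median of -0.87, were below Hdac9.

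After weight loss the long genes were shifted less. The median of the 259 genes over 400 kb in macrophages was -0.38, and 27 of them fell further than Hdac9. With the length offset the weight loss value of Hdac9 was -1.02 (adjusted p = 0.094). Dnmt3a rose by 0.75 (adjusted p = 0.026) under the same offset, and was the only member called there.

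Sirt6 kept its call in macrophages with the length offset, at 1.72 (adjusted p = 0.024), and in progenitors, at 1.60 (adjusted p = 0.048), but not in adipocytes, at 1.45 (adjusted p = 0.076). With both terms it was called in progenitors alone, at 2.58 (adjusted p = 0.041). With the length offset Kmt2a and Kdm7a lost their calls in adipocytes. Sirt5 alone of the 7 kept its call there, at 1.48 (adjusted p = 0.027). Hdac4 did not, at -0.80 (adjusted p = 0.078), nor with sequencing set as a term, at -1.29 (adjusted p = 0.051). With sequencing set as a term 1 of the 7 adipocyte calls held (Kdm7a), 2 of the 6 progenitor calls (Hdac9 and Sirt6) and 3 of the 10 macrophage calls (Hdac9, Kdm6b and Sirt6).

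**Figure D4:**
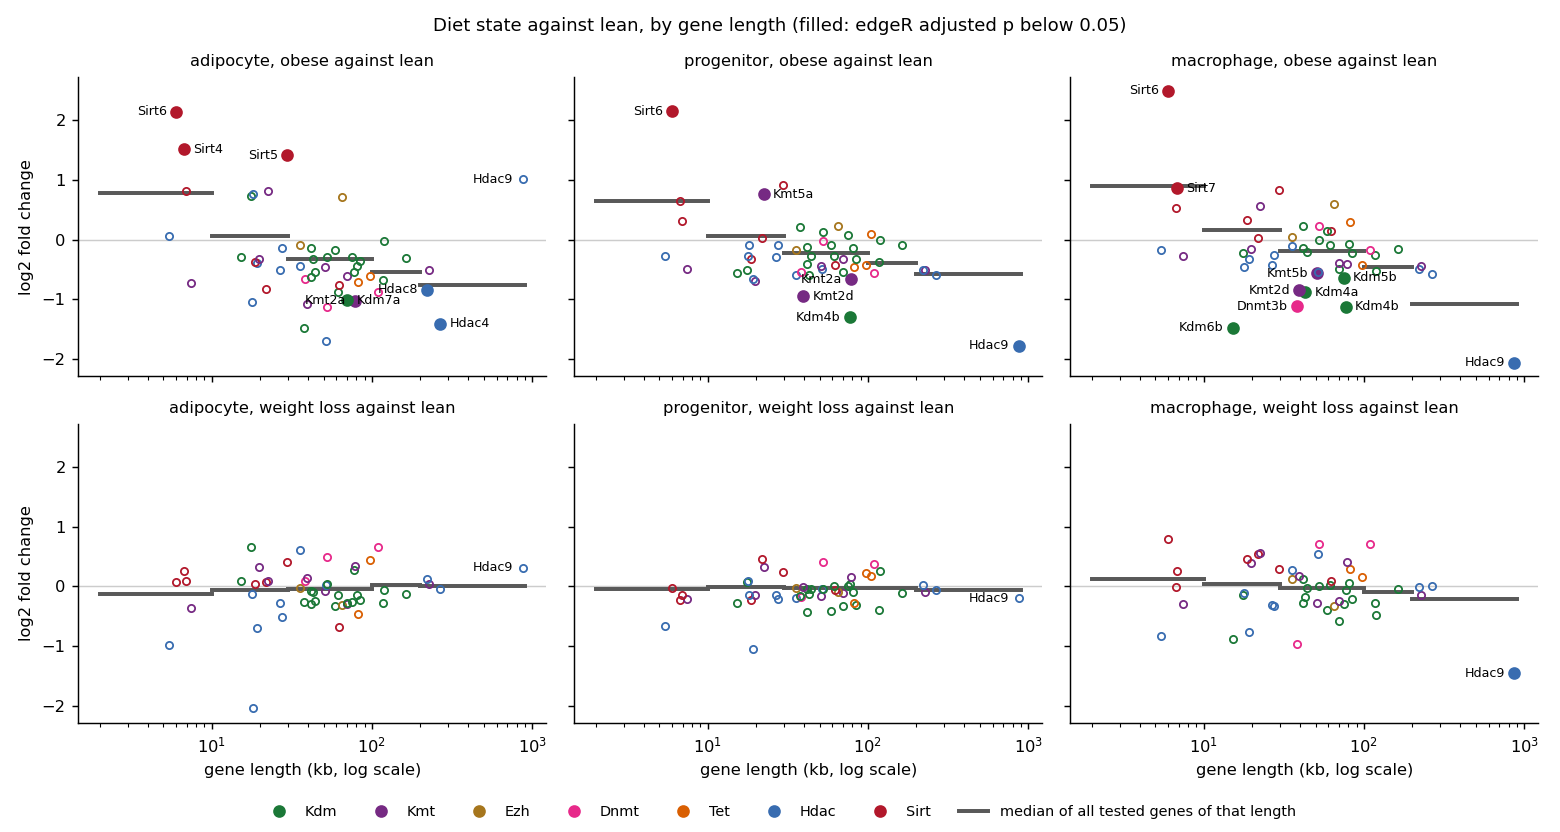
Log2 fold change of each tested member (points, coloured by family, filled where the edgeR adjusted p was below 0.05) against gene length in kb on a log axis, for obese (top) and weight loss (bottom) against lean in 3 cell classes. Bars give the median of all tested genes in 5 length ranges, which in the obese panels falls from positive for short genes to negative for long ones, and Kdm6b in macrophages lies below its bar.

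The remaining members named for the marks above are given mainly in adipocytes, where none of them was called in the main diet comparisons. Ezh1, the polycomb methyltransferase of resting cells, was 121, 104 and 109.6 CPM in C, CC and CCC, 119.8 and 123 in H and HH, 119.7 and 101 in HC and HHC, 135 in CCH and 103 in HCH in adipocytes, and its obese log2 fold change was -0.095 (SE 0.25, adjusted p = 0.81). Ezh2, that of dividing cells, was 47.8, 26.2 and 35.2 CPM in C, CC and CCC, 75.5 and 64.8 in H and HH, 31.8 and 27.5 in HC and HHC, 49.9 in CCH and 54.5 in HCH in adipocytes, with 0.71 (SE 0.33, adjusted p = 0.16). Ezh2 was highest in H and HH, but the test did not pass. In macrophages Ezh2 ran from 27.7 to 91.2 (median 64.2) CPM with H highest, at 0.59 (SE 0.31, adjusted p = 0.18). In macrophages and progenitors Ezh1 ran from 64.4 to 86.5 (median 80.8) and from 101 to 117 (median 106) CPM.

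Kdm6a, the X-linked H3K27 demethylase gene, was 188, 126 and 123 CPM in C, CC and CCC, 119 and 98.4 in H and HH, 117 and 131 in HC and HHC, 186 in CCH and 161 in HCH in adipocytes, with -0.67 (SE 0.30, adjusted p = 0.16). With sequencing set as a term, where C alone is the lean reference, the log2 fold change of Kdm6a was -1.14 in adipocytes and -0.75 in progenitors. C and CCH were its highest libraries in adipocytes. In macrophages it ran from 153 to 252 (median 177) CPM and was not called, at -0.26 (SE 0.18, adjusted p = 0.31). Kdm6b in progenitors was 46.1, 58.8 and 50.4 CPM in C, CC and CCC, 43.3 and 39.7 in H and HH, 42.7 and 46.8 in HC and HHC, 41.3 in CCH and 31.7 in HCH, at -0.56 (SE 0.20, adjusted p = 0.084).

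The H3K4 demethylase gene Kdm1a was 65.1, 71.7 and 68.6 CPM in C, CC and CCC, 65.9 and 63.3 in H and HH, 65.5 and 77.4 in HC and HHC, 70.1 in CCH and 58.1 in HCH in adipocytes. Its libraries overlapped between all diet states, and its log2 fold changes for obese were -0.30 (SE 0.22, adjusted p = 0.36), 0.13 (SE 0.20, adjusted p = 0.67) in progenitors and -4.7e-04 (SE 0.17, adjusted p = 1) in macrophages. Kmt2c was 594, 428 and 439 CPM in C, CC and CCC, 394 and 410.4 in H and HH, 497 and 523 in HC and HHC, 578 in CCH and 518 in HCH in adipocytes, with -0.50 (SE 0.29, adjusted p = 0.25). Kmt2d was 37.1, 70.5 and 67.1 CPM in C, CC and CCC, 33.5 and 29.7 in H and HH, 74.1 and 49.8 in HC and HHC, 32.7 in CCH and 35.0 in HCH in adipocytes, with -1.077 (SE 0.36, adjusted p = 0.075). C and CCH were highest for Kmt2c, and the S019 libraries were highest for Kmt2d.

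Among the DNA methylation enzymes, Dnmt3a in adipocytes was 140.3, 302 and 288 CPM in C, CC and CCC, 126 and 173 in H and HH, 451 and 300.1 in HC and HHC, 189.8 in CCH and 174 in HCH. The S019 libraries were again above the S075 libraries, C included, and the log2 fold changes were -0.88 (SE 0.39, adjusted p = 0.15) for obese and 0.66 (SE 0.37, adjusted p = 0.62) for weight loss. Dnmt1 in adipocytes ran from 0 to 13.5 (median 8.89) CPM, and the 0 UMIs in H allow up to 3.59 CPM there. Tet2 in adipocytes was 194, 107 and 117 CPM in C, CC and CCC, 122 and 81.1 in H and HH, 94.8 and 114 in HC and HHC, 131 in CCH and 120.3 in HCH, with -0.71 (SE 0.36, adjusted p = 0.19). Tet3 in adipocytes was 112, 222 and 238 CPM in C, CC and CCC, 146 and 138 in H and HH, 292 and 210.4 in HC and HHC, 192 in CCH and 206 in HCH, with -0.60 (SE 0.34, adjusted p = 0.24). Tet2 was highest in C, and with sequencing set as a term, where C alone is the lean reference, its log2 fold change was -1.29. Tet3 was lowest in C, and all its S019 libraries were above all its S075 libraries.

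In macrophages Tet2, often mutated in clonal blood disorders, was 180.5, 151 and 204 CPM in C, CC and CCC, 247 and 239.7 in H and HH, 200.1 and 243 in HC and HHC, 218 in CCH and 276 in HCH, with 0.29 (SE 0.16, adjusted p = 0.2), and was called with the length offset, at 0.61 (adjusted p = 0.037). Tet3 was 532, 517 and 569.9 CPM in C, CC and CCC, 412 and 484 in H and HH, 661 and 545 in HC and HHC, 534 in CCH and 506 in HCH, with -0.42 (SE 0.18, adjusted p = 0.11). HCH, H and HHC were highest for Tet2, and HC for Tet3. Hdac3, the catalytic partner of the NCoR corepressor, was 44.6, 31.1 and 28.2 CPM in C, CC and CCC, 34.7 and 28.2 in H and HH, 15.6 and 30.5 in HC and HHC, 39.2 in CCH and 31.4 in HCH in adipocytes, with -0.39 (SE 0.37, adjusted p = 0.47). In progenitors and macrophages Hdac3 ran from 15.5 to 49.8 (median 27.5) and 13.5 to 25.9 (median 20.7) CPM. HC was its lowest library in all 3 classes, and it did not pass in the main diet comparisons, with weight loss values of -1.05 (SE 0.30, adjusted p = 0.14) in progenitors and -0.76 (SE 0.24, adjusted p = 0.1) in macrophages. In obese progenitors it was -1.12 with sequencing set as a term, where C alone is the lean reference, and -1.22 with that term and the length offset. Alternatives called it after weight loss in progenitors without the low count filter and in macrophages without the limit of genes.

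Pairs of single libraries, chosen as in the study, were compared by ratio with no test between conditions. HH (31 weeks old, S075) and CC (26 weeks old, S019) differ in age and sequencing set, whereas the libraries of each other pair share both. Past 2-fold for H against C were 7 of 41 counted members in adipocytes, where 23.3% of all counted genes were, 3 of 52 in progenitors, where 28.9% were, and 5 of 49 in macrophages, where 35.6% were. For HH against CC these were 11 of 49 beside 33.8%, 6 of 52 beside 31.4% and 6 of 47 beside 37%. With TMM factors, which rescale the libraries, HH against CC in adipocytes had 17 past 2-fold. Some members were past 2-fold the same way in both obese pairs, with both intervals excluding equal levels. They were Sirt4, Sirt5, Hdac9 and Hdac4 in adipocytes, Sirt6 and Hdac9 in progenitors, and Sirt6, Hdac9 and Kdm6b in macrophages. The share of all genes that did so was not counted. Adipocyte Hdac9 was 3.28 (95% interval 2.82 to 3.79) times its level in C for H, and 2.90 (95% interval 2.60 to 3.23) times its level in CC for HH.

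For weight loss, HC against CC had 0 of 49 counted members past 2-fold in adipocytes beside 12.5% of all genes, 1 of 49 in progenitors beside 13.5% (Dnmt3b, higher) and 1 of 45 in macrophages beside 19.7% (Hdac9). HHC against CCC had 2 of 48 in adipocytes beside 13.5% (Hdac10 and Hdac7, lower), 0 of 49 in progenitors beside 11% and 3 of 42 in macrophages beside 14.8% (Kmt5a and Sirt3 higher, Hdac9 lower). The Hdac9 ratios in macrophages were 0.491 (95% interval 0.456 to 0.527) for HC against CC, where the interval spans 2-fold and no member was past it with TMM factors, and 0.328 (95% interval 0.308 to 0.35) for HHC against CCC.

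Renewed against first short HFD, HCH against CCH, had 0 of 48 counted members past 2-fold in adipocytes beside 16.1% of all genes. Progenitors had 3 of 52 beside 15.1% (Hdac11, Tet1 and Sirt6, higher), and macrophages had 3 of 50 beside 18.9% (Sirt4, Kdm8 and Sirt6, higher). Hdac9 in macrophages had a ratio of 0.551 (95% interval 0.535 to 0.568), in libraries with 67.2% and 6.12% LAMs, and within LAMs and PVMs it was 657 against 1093 CPM and 1718 against 1819 CPM. In adipocytes its ratio was 1.83 (95% interval 1.60 to 2.10). Sirt6 in macrophages had a ratio of 3.79 (95% interval 2.05 to 7.68). HCH and CCH also differed by gene length over all genes, and no length offset was applied to these ratios. Against the mean of the lean libraries, genes of up to 10 kb had medians of 0.64 in HCH and 0.028 in CCH in macrophages. In progenitors these were 0.47 and -0.015, and in adipocytes 0.60 and 0.036. Genes over 200 kb in macrophages had -0.50 and -0.25.

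Partners of the members were read from 6 lists of 75 genes covering polycomb partners, other methyltransferases, other demethylases, acetyltransferases, corepressor subunits, and genes of methylated DNA reading and maintenance. In obese adipocytes 8 of 70 tested were called, 1 higher and 7 lower, beside 13.8% of all genes. In obese progenitors 6 of 70 were called, 1 higher and 5 lower, beside 18.2%, and in obese macrophages 20 of 73 were called, 7 higher and 13 lower, beside 30.5%. The median log2 fold changes of the listed genes were -0.38, -0.30 and -0.16, and those of all genes were -0.08, -0.04 and 0.05, not matched by gene length. With the length offset 1 of the 8, 1 of the 6 and 10 of the 20 genes passed again, but Smyd3 in macrophages did so in the opposite direction. With sequencing set as a term 4, 0 and 6 calls held. Without H none held in any class, and without HH 0, 0 and 3 held. After weight loss 5 of 73 were called in macrophages, 3 higher and 2 lower, near the 6.44% of all genes, and 0 of 70 in adipocytes and in progenitors, with 3 and 6 at an unadjusted edgeR p below 0.05.

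Among polycomb partners Cbx7, a subunit of PRC1 that binds H3K27me3, fell in all 3 classes of obese mice, by 1.43 (SE 0.35, adjusted p = 0.034) on the log2 scale in adipocytes, 1.01 (SE 0.29, adjusted p = 0.04) in progenitors and 1.55 (SE 0.24, adjusted p = 0.0044) in macrophages. It fell in macrophages after weight loss too, by 1.07 (SE 0.25, adjusted p = 0.037), a call lost in 11 of 17 alternatives. Jarid2 fell and Ring1 rose in obese macrophages, at log2 fold changes of -0.92 (SE 0.25, adjusted p = 0.024) and 1.35 (SE 0.27, adjusted p = 0.0091), so 1 of 11 tested rose and 2 fell there, beside 16.6% and 14% of all genes. In adipocytes and progenitors Cbx7 was the only one of 10 called, where 13.8% and 18.2% of all genes were. Over 17 alternatives the call of Cbx7 in obese mice was lost in 6 in adipocytes, 9 in progenitors and 1 in macrophages, and that of Jarid2 and Ring1 in 4 and 5, the length offset among them for both.

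Of 19 other methyltransferases, all tested in macrophages, 3 rose and 4 fell in obese macrophages, near the 16.6% and 14% of all genes. Dot1l, the H3K79 methyltransferase gene, rose by 1.18 (SE 0.30, adjusted p = 0.02) in obese mice and 1.26 (SE 0.31, adjusted p = 0.047) after weight loss, and was higher in LAMs than PVMs by 1.56 (SE 0.16, adjusted p = 7.8e-10). Smyd2 rose in both, by 1.081 (SE 0.26, adjusted p = 0.016) and 1.12 (SE 0.26, adjusted p = 0.041), and Setd7 fell in obese macrophages by 1.07 (SE 0.20, adjusted p = 0.0074). In adipocytes 3 of 18 fell, Smyd3 by 1.31 (SE 0.27, adjusted p = 0.023) together with Ehmt2 and Prdm2, and in progenitors 1 of 18 fell (Setd1a), beside 4.44% and 7.4% of all genes. With the length offset adipocyte Ehmt2 was still called, at -1.07 (adjusted p = 0.038). Smyd3 and Prdm2 were not, at -0.56 (adjusted p = 0.14) and -0.37 (adjusted p = 0.25). In obese macrophages Dot1l and Smyd2 each lost the call in 4 and Setd7 in 2 of 17 alternatives, and after weight loss Dot1l lost it in 8 and Smyd2 in 11. Suv39h2, which also rose in obese macrophages, lost its call in 8, and Prdm16 and Setd1a, which fell, in 4 and 10. Smyd3, called lower there at -0.53, turned to 0.84 (adjusted p = 0.019) with the length offset, and so was called higher.

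The acetyltransferases that were called all fell, 2 of 11 in adipocytes, 2 of 11 in progenitors and 3 of 11 in macrophages, beside 4.44%, 7.4% and 14% of all genes called lower, of which Ncoa1 was called in each. Ncoa1, a coactivator of nuclear receptors, changed by -1.16 (SE 0.33, adjusted p = 0.049), -0.92 (SE 0.21, adjusted p = 0.02) and -0.91 (SE 0.26, adjusted p = 0.029), and was not called in any of the 3 with the length offset. Nor were the other acetyltransferases called with that offset. Kat6a was -0.59 (adjusted p = 0.13) in adipocytes, and Kat2b was -0.36 (adjusted p = 0.18) in progenitors and -0.28 (adjusted p = 0.2) in macrophages. Kat6b in macrophages turned to 0.044 (adjusted p = 0.86). Of corepressor subunits, 1 of 15 was called higher and 2 lower in obese macrophages, beside the 16.6% and 14% of all genes. Of 16 and 15 tested in adipocytes and progenitors edgeR called 0, with 1 and 2 at an unadjusted p below 0.05, and in the tests of the difference between macrophages and either class 0 of 16 passed. Chd3, a remodeller of the NuRD complex, rose by 0.69 (SE 0.22, adjusted p = 0.042) in obese macrophages and 1.05 (SE 0.22, adjusted p = 0.026) after weight loss, with the call lost in 8 and 5 of 17 alternatives. Of other demethylases, 2 of 8 fell in obese macrophages, Hr by 2.81 (SE 0.53, adjusted p = 0.0073) and Phf2, beside 14% of all genes. In progenitors Phf2 was the only 1 of 7 called, beside 7.4% of all genes called lower, and in adipocytes edgeR called 0 of 7, with 2 at an unadjusted p below 0.05 and 0 by DESeq2. Hr fell in macrophages after weight loss too, by 2.62 (SE 0.55, adjusted p = 0.027), and lost the call in 1 of 15 alternatives for obese and 7 of 15 for weight loss.

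Of the genes of methylated DNA reading and maintenance, Mbd3, a NuRD subunit of the methyl-CpG-binding domain family, rose in progenitors and macrophages by 1.30 (SE 0.34, adjusted p = 0.03) and 1.28 (SE 0.39, adjusted p = 0.037), where 1 of 9 and 2 of 9 were called, Uhrf2 being the other. In adipocytes Mbd1 rose and Mbd2 fell, by 0.84 (SE 0.21, adjusted p = 0.036) and -0.95 (SE 0.23, adjusted p = 0.033), 2 of 8 tested. In progenitors, macrophages and adipocytes 18.2%, 30.5% and 13.8% of all genes were called. Mbd3 was not called with the length offset in either class. Between LAMs and PVMs, 17 of 71 listed genes were called, 7 higher in LAMs beside 12.3% of all genes and 10 lower beside 11.9%, among them Uhrf2 at 0.72 (SE 0.094, adjusted p = 2.6e-07) and Cbx7 at -0.73 (SE 0.25, adjusted p = 0.029).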

How the data were processed

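Single-nucleus RNA was measured in 9 pooled libraries. The deposited matrices hold counts, raw UMIs per gene and barcode, which the authors made with Cell Ranger 6.1.2 on mm10 with intronic reads. The limits of the study were applied (500 to 3000 genes, no more than 40000 UMIs per nucleus), and no doublet caller or free RNA correction was run. A nucleus took the class whose 10 markers exceeded the Poisson expectation from free RNA in its library (-log10 tail of at least 3, 2 times the next class, at least 2 markers detected). This gate was chosen after the data were seen, since the count of markers first written left 7 macrophage nuclei in CC. UMIs, without mitochondrial genes and Malat1, were summed per library and class. The members and lists were chosen with earlier results of these data known.

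Sums with at least 50 nuclei and genes with a mean of at least 10 UMIs were fitted with the quasi-likelihood test of edgeR 4.0.16 (TMM, R 4.3.3), Benjamini-Hochberg below 0.05 over all genes, with 3 lean, 2 obese and 2 weight loss libraries sharing 1 spread. The study tested nuclei as replicates, which was not done here. Class and LAM fits had library as a block. Ratios of single libraries have exact conditional 95% intervals and were counted where at least 10 UMIs were predicted in each. Alternatives included DESeq2 1.42.0, sequencing set as a term, a gene length offset (GENCODE lengths, lowess span 0.3), other gates and leaving out libraries. Named were 15 members fixed in advance by role, members called in a diet fit, members past 2-fold in both pairs of a state, and up to 5 leading members per class. The fits were tested on simulated data. Totals of 22599619 to 66615262 UMIs per library set the counting precision.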

Additional observations from a re-analysis of the deposited data

Results flagged for a closer look

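Differences of a diet effect between cell classes were flagged where the test of the difference itself passed in edgeR. All are differences of log2 fold changes over 7 libraries, with p-values adjusted over all genes. For obese against lean, macrophages minus adipocytes, they were Hdac9 at -3.03 (SE 0.38, adjusted p = 4.5e-04), Kdm6b at -1.18 (SE 0.33, adjusted p = 0.034), Tet2 at 1.06 (SE 0.28, adjusted p = 0.024), Sirt2 at 0.92 (SE 0.23, adjusted p = 0.016), Hdac4 at 0.90 (SE 0.24, adjusted p = 0.024), Kdm3b at 0.88 (SE 0.24, adjusted p = 0.029) and Kmt2a at 0.69 (SE 0.20, adjusted p = 0.036). Of these, Hdac9, Kdm6b, Sirt2 and Hdac4 were also called with the gene length offset. Of 11 alternatives, the call was lost in 10 for Kmt2a, 9 for Kdm3b, 7 for Tet2 and for Hdac4, 5 for Sirt2, 4 for Kdm6b and 0 for Hdac9.

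For obese against lean, progenitors minus adipocytes, they were Hdac9 at -2.75 (SE 0.40, adjusted p = 0.0026) and Sirt2 at 0.92 (SE 0.22, adjusted p = 0.032), both also called with the length offset. Hdac9 lost this call in 1 and Sirt2 in 7 of 11 alternatives, and Hdac9 in progenitors was near or below the level that macrophage RNA alone would give. For weight loss against lean they were Hdac9 at -1.87 (SE 0.38, adjusted p = 0.027) for macrophages minus adipocytes and Kdm2b at -0.77 (SE 0.18, adjusted p = 0.036) for macrophages minus progenitors. The Kdm2b difference was not called with the length offset, the stricter gate or whichever library was left out, and the Hdac9 difference after weight loss lost its call in 5 of 11 alternatives, the stricter gate among them.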

How the results depend on the processing

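Counts of members past the threshold moved with the libraries left out, the filters and the length and set terms, and the cause was not tested. Of 7 members called in obese adipocytes, no filter on low counts gave 12, the gene length offset 2, that offset with sequencing set as a term 2, and leaving out 1 library 0 to 11 (11 without C, 0 without CC, H or HH). Of 6 in obese progenitors, the offset with the set term gave 2, the first written count gate 3 and leaving out 1 library 0 to 9. Of 10 in obese macrophages, the set term gave 5, the offset with the set term 1, the stricter background-adjusted gate 6 and leaving out 1 library 1 to 12. For weight loss, the 0 of progenitors became 1 without the low count filter. The 1 of macrophages became 2 with the looser count gate, DESeq2 or no low count filter, 4 without the limit of genes, 0 with the offset and set term, and 0 to 1 when 1 library was left out. Sirt7 in obese macrophages turned to a log2 fold change of -0.12 with the offset and set term. The 2 called in obese adipocytes with the length offset were Sirt5 and Hdac9, and Hdac9 was not among the 7.

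For differences between classes under obesity, the 7 of macrophages minus adipocytes became 4 with the length offset and 1 to 7 without 1 library, the 2 of progenitors minus adipocytes became 1 to 3, and the 0 of macrophages minus progenitors became 3 with DESeq2 or no limit of genes and 0 to 1 without 1 library. For weight loss, the 1 of macrophages minus adipocytes became 3 without the limit of genes, 0 with the stricter background-adjusted gate and 0 to 1 without 1 library. The 1 of macrophages minus progenitors became 0 with the offset or that gate, 2 without the limit and 0 whichever library was left out. Hdac9 in obese macrophages against adipocytes was called in all 11 alternatives of that difference.

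Of pair counts in adipocytes, the 11 of HH against CC became 17 with TMM factors. The 0 of HC against CC became 3 with the stricter or the first written count gate, 2 with the looser one and 1 with the stricter background-adjusted gate. The 2 of HHC against CCC became 4 with the looser gate and 1 without the limit of genes, and the 0 of HCH against CCH became 4 without the limit and 1 with the first written gate. In progenitors the stricter count gate gave 5 for H against C, 1 for HHC against CCC and 1 for HCH against CCH, the first written gate gave 3 for HH against CC and 0 for HC against CC, and the looser gate gave 0 for the latter. In macrophages HC against CC gave 4 without the limit and 0 with TMM factors.

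Of the values of single members and alternatives, 366 kept direction and side of the threshold, 236 lost their call, 7 gained one and 1 reversed. The stricter count gate could not be run for the fits, since it left 17 adipocyte nuclei in HHC, 2 progenitor nuclei in CC and 0 macrophage nuclei in CC, and the first written gate left 7 macrophage nuclei in CC. No paired analysis was run, since each diet group had 1 library and the labels give no replicate numbers that pair libraries across groups. Depth limits Sirt6, Dnmt3b, Hdac11 and Tet1, which rested on few UMIs per library.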
